A study of Drosophila melanogaster with 6 samples.

Results

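The Toll pathway carries a signal from outside the cell to transcription factors of the NF-kappaB family. In flies, circulating recognition proteins and a cascade of serine proteases activate the ligand Spatzle, which binds the receptor Toll. The adaptors Myd88 and Tube and the kinase Pelle then act on the inhibitor Cactus, and the transcription factors Dorsal and Dif enter the nucleus. The pathway is known for patterning the dorsal-ventral axis of the embryo from components that the mother lays down in the egg, and for the response of the adult fat body to fungi and Gram-positive bacteria.

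Here 10 genes of this pathway were followed in young and old flies. They were the ligand gene spz, the genes SPE and nec that act on its processing, the receptor gene Tl, the adaptor and kinase genes Myd88, tub and pll, the inhibitor gene cact, and the transcription factor genes dl and Dif. Members were taken by their gene symbol in the deposited table, which found all 10 among the 14535 genes named there, with 13 of the 18769 probe sets tested. A probe set is a group of short probes that read the same transcripts. Tl, cact and dl each had 2 probe sets, and the other 7 genes had 1. No measured value was used in this choice, although earlier results from the same arrays were known when it was made.

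The flies were of the y(1), w67c23(2) stock, kept at 20 °C in both age groups, with an age of 3 days in the young and 45 days in the old age group. Total RNA of whole flies was measured on 6 Affymetrix GeneChip arrays, 3 per age group, and the labels describe each sample as a mix of 100 females and 100 males. Levels are log2 values normalized with GCRMA, and values of about log2 2 are the lowest the scale holds, as read from probes without signal. Young samples are named Young1 to Young3. Old samples are named Old4 to Old6 after the numbers in the deposited table, which are not the replicate numbers of the labels.

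The labels and the study's methods give a mix of sexes, while its results speak of female flies. The marker genes of male organs went against the mix. Of 10 accessory gland genes, 9 were under log2 4 in all 6 samples, and the same held for 9 of 10 testis genes. The exceptions were Acp95EF, and bam, which also acts in the female germline. Female germline markers were bright, and their summed level lay between 16.43 and 16.52 in young and between 16.41 and 16.47 in old samples (log2 of the sum over 10 genes). Eggshell markers, also summed over 10 genes, lay between 17.01 and 17.05 in young samples but stood at 15.97, 14.38 and 7.34 in Old4, Old5 and Old6. The summed level of 8 fat body markers was 16.37 to 16.61 in young and 15.95 to 16.09 in old samples. For 8 hemocyte markers it was 13.07 to 13.45 and 13.03 to 13.10, with NimC1, eater, He and NimB5 under log2 4 throughout. Such a sum follows its brightest probe sets, and single markers moved in both directions. Of the 8 fat body markers, only 1 had a higher mean in old flies. At an FDR under 0.15 (limma), 5 of them were lower and 1 higher. Of the 8 hemocyte markers, 4 had a higher mean, while 2 were lower and 0 higher at that FDR. Of the fat body markers, Fbp1 and Fbp2 fell, with log2 differences of -5.60 and -6.80 (FDR 0.00565 and 0.00735, limma), while to rose by 1.04 (FDR 0.0564). Old values of Fbp1 and Fbp2 were at most 2.64 and 2.77, near the lowest of the scale, so their differences are no measured ratios. Of the hemocyte markers, srp fell by 2.03 (FDR 0.00646) and Pxn by 1.30 (FDR 0.0220), and Hml differed by 0.69 (FDR 0.186). Of the markers given here with their differences, all except Hml passed the criteria for a call that were applied to the members. In whole flies, fewer cells of a type and less RNA per cell cannot be told apart.

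To be called, a probe set needed a fold difference above 2 together with a p under 0.05 and a false discovery rate (FDR) under 0.15, the criteria of the study's methods. The test was limma's moderated test, with FDR computed over all 18769 probe sets. No member passed the 3 criteria, whereas 6.41% of all probe sets did. Among the 7913 brighter probe sets, those whose mean reached log2 6 in at least 1 group and where 12 of the 13 member probe sets lie, the share was 12.6%. Yet the brightest probe set of each of the 10 genes had a higher mean in the old age group, as did 53.1% of all probe sets and 55.9% of the brighter ones. At an FDR under 0.15 with no fold criterion, 7 of the 13 member probe sets passed, each of a different gene and all higher in old flies, against 11.6% of all probe sets and 24.1% of the brighter ones. This count rests on differences of 1.08-fold to 1.97-fold. It was 3 without Old5, 4 without Old6 and between 5 and 6 without any one of the other samples. The setting without a fold criterion was added after the values were seen.

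The median log2 difference between old and young samples was 0.26 over the 13 member probe sets and 8.17e-04 over all probe sets. For the brighter probe sets these medians were 0.32 and 0.04. The 3 old samples lay above the 3 young samples in 8 member probe sets, of 8 different genes, and below them in none. Over all probe sets, 16.1% had old values entirely above young values, and 30.6% of the brighter ones did. By the brightest probe sets, the SD of a gene was between 0.04 and 0.11 in the old and between 0.04 and 0.57 in the young age group, and it was larger in the young for all 10 genes. The same held for 69.3% of the brighter probe sets. With 3 samples per group, an exact permutation test of a single gene cannot give a two-sided p under 0.1.

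**Figure D1:**
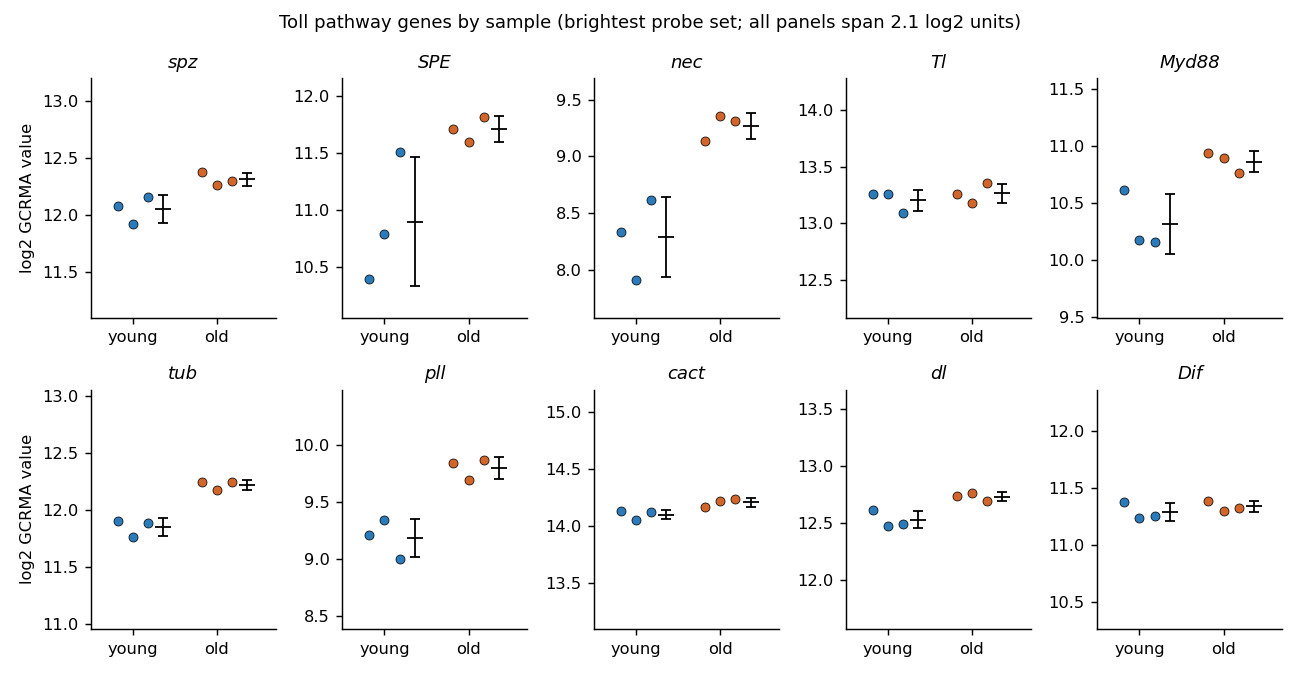
Level of the 10 genes in each sample (log2 GCRMA value of the brightest probe set) for the young (blue) and old (orange) age groups, 3 samples each, with the mean and SD beside the points. Each panel spans the same height on its own scale. Old points lie above all young points for spz, SPE, nec, Myd88, tub, pll, cact and dl, and the groups overlap for Tl and Dif.

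The largest differences belonged to the 2 genes that act on the ligand outside the cell. The gene nec encodes Necrotic, a serpin that restrains the protease cascade upstream of Spatzle. By its probe set 1636653_at, its level was 8.34, 7.92 and 8.62 in Young1, Young2 and Young3, and 9.14, 9.35 and 9.31 in Old4, Old5 and Old6. The groups did not overlap, and the lowest old sample was 0.52 above the highest young one. The means of 8.29 ± 0.35 (SD, n = 3) and 9.27 ± 0.11 differed by 0.98 on the log2 scale (SE 0.19, 95% interval 0.47 to 1.48, FDR 0.0386 in limma). This is a fold difference of 1.97, which misses the fold criterion by a narrow margin. Without Young3 the fold difference was 2.20 and without Old4 2.06, and nec was then called. Its FDR stayed under 0.15 in all 17 alternatives run.

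SPE encodes the Spatzle-processing enzyme, the protease that cuts the ligand into its active form. Its level was 10.39, 10.79 and 11.51 in Young1, Young2 and Young3, and 11.71, 11.59 and 11.82 in Old4, Old5 and Old6. Old values were all higher, but Young3 came within 0.09 of the lowest of them, and the young samples were spread over more than 1 log2 unit. The difference of 0.81 (SE 0.30, 95% interval 0.02 to 1.60) is a fold difference of 1.76 and had an FDR of 0.195 in limma. Without Young3 it grew to 2.17-fold with an FDR of 0.0287, and SPE was then called. Without any one of the other samples it was not called.

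The ligand gene spz differed less. Its values were 12.08, 11.92 and 12.16 in the young samples and 12.37, 12.26 and 12.30 in the old samples, so that the groups did not overlap. The difference of 0.26 (SE 0.07, 95% interval 0.08 to 0.44) corresponds to 1.20-fold, with an FDR of 0.0902 in limma. With each sample left out in turn, the fold difference was between 1.14 and 1.24 and the FDR between 0.0694 and 0.232. It was 0.15 or more without Young1, Old4, Old5 or Old6.

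The receptor gene Tl showed no detectable difference. By its bright probe set 1639321_s_at, the level was 13.26, 13.26 and 13.09 in the young and 13.26, 13.18 and 13.35 in the old samples, and the groups overlapped. The difference was 0.06 with a 95% interval of -0.11 to 0.24 (FDR 0.885, limma), which leaves room for a fold difference of up to 1.18. The other probe set with the symbol Tl, 1624769_s_at, carries no FlyBase identifier in the table and stood between 2.32 and 2.36 in all samples, at the low end of the scale.

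The 3 genes of the complex that forms under the receptor were all higher in old flies. Tube, encoded by tub, is the adaptor that links Myd88 to Pelle, and its values were 11.90, 11.76 and 11.88 in young and 12.24, 12.17 and 12.24 in old samples. The groups were apart by 0.27, which is more than the range of either of them. The difference of 0.37 (SE 0.05, 95% interval 0.25 to 0.49) is 1.29-fold, and its FDR of 0.0105 in limma was the lowest of all members. Pelle, encoded by pll, is the kinase of the complex and resembles the mammalian IRAK kinases. Its values were 9.21, 9.34 and 9.004 in young and 9.85, 9.69 and 9.87 in old samples, again without overlap. The fold difference of pll was 1.54 (log2 0.62, SE 0.10, 95% interval 0.35 to 0.89, FDR 0.0233). For both tub and pll the FDR was under 0.15 in all 17 alternatives, with an FDR of at most 0.0534 for tub and 0.0972 for pll.

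Myd88 binds the receptor through a domain that both share. Its level was 10.62, 10.18 and 10.15 in Young1, Young2 and Young3 and 10.94, 10.90 and 10.76 in Old4, Old5 and Old6. All old samples were higher, with Young1 nearest to them. The fold difference was 1.46 (log2 0.55, SE 0.15, 95% interval 0.17 to 0.93, FDR 0.0858 in limma). It lay between 1.38 and 1.63 with each sample left out. The FDR then ran from 0.0115 to 0.236 and was 0.15 or more in every case other than without Young1.

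**Figure D2:**
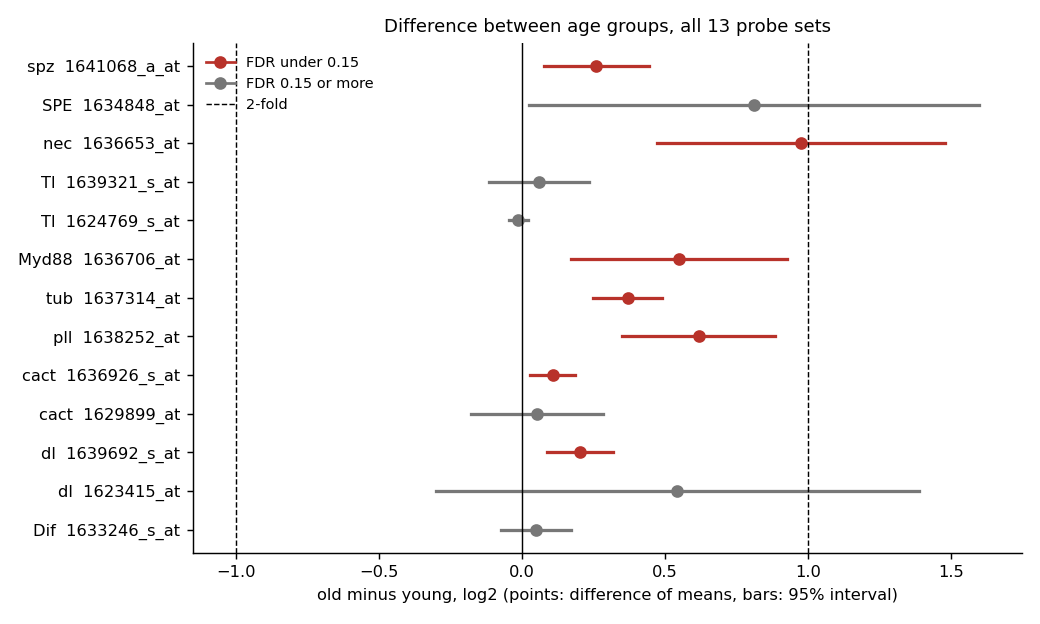
Difference between the old and young age groups on the log2 scale for all 13 probe sets, with bars for the 95% interval of limma. Red marks an FDR under 0.15, and the dashed lines mark a fold difference of 2. No point lies beyond the dashed lines, and the point of nec lies closest to it at 0.98.

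The inhibitor gene cact encodes the IkappaB protein that holds Dorsal and Dif in the cytoplasm. Its brighter probe set, 1636926_s_at, gave 14.13, 14.06 and 14.12 in young and 14.17, 14.22 and 14.24 in old samples. The old samples were all higher, by 0.04 at the closest. This probe set differed by 1.08-fold (log2 0.11, SE 0.03, 95% interval 0.03 to 0.19, FDR 0.0969 in limma). The FDR was 0.15 or more without Young2, Young3, Old5 or Old6 and ran from 0.0893 to 0.266 over the samples left out. The dimmer probe set, 1629899_at, read 10.06, 10.20 and 10.27 in young and 10.09, 10.23 and 10.35 in old samples. Its groups overlapped, its difference was 0.05 with a 95% interval of -0.18 to 0.28, and its sign turned without Young1 (-0.0048) or Old6 (-0.0101).

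Dorsal, encoded by dl, patterns the embryo and also acts in immune tissue. By the bright probe set 1639692_s_at, dl stood at 12.62, 12.48 and 12.50 in young and at 12.74, 12.77 and 12.69 in old samples, without overlap. The difference of 0.20 (SE 0.04, 95% interval 0.09 to 0.32) is 1.15-fold, with an FDR of 0.0513 in limma. Leaving out Old5 took that FDR to 0.166. The dimmer probe set 1623415_at had values of 5.06, 6.05 and 5.94 in young and 5.91, 6.28 and 6.49 in old samples, which overlapped. Its larger difference of 0.54 had a wide 95% interval, from -0.30 to 1.39 (FDR 0.464).

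Dif, which carries the immune response of the adult, was at 11.37, 11.23 and 11.25 in young and 11.39, 11.30 and 11.32 in old samples. The groups overlapped, and the difference was 0.05 with a 95% interval of -0.07 to 0.17 (FDR 0.804, limma). A fold difference above 1.13 lies outside that interval. Whether the differences of dl and Dif are themselves unequal was not tested.

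**Figure D3:**
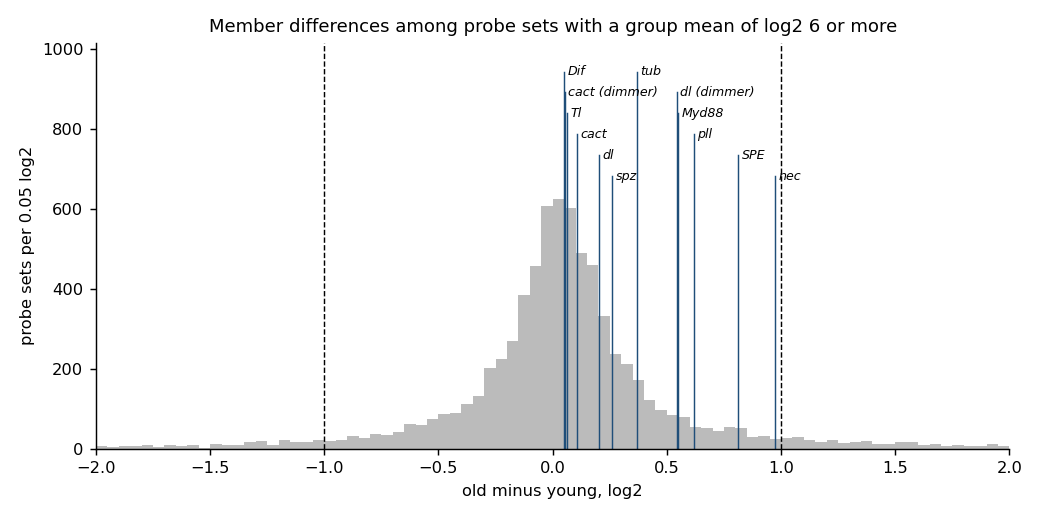
Histogram of the log2 difference between the old and young age groups over the 7913 brighter probe sets (grey, 562 lie beyond the axis), with a blue line for each of the 12 member probe sets among them. All 12 lines lie to the right of 0 and inside the dashed lines at a fold difference of 2.

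The samples that stood highest or lowest within a group were not the same from gene to gene. Young2 was the lowest young sample in 6 of the 12 brighter member probe sets, and Young1 and Young3 in 3 each. SPE was lowest in Young1, nec in Young2 and pll in Young3. Among old samples, Old5 was the lowest in 6 and Old6 the highest in 6. The eggshell markers given above separated the old samples widely, whereas no brightest probe set of a member had an SD above 0.11 in that group. The part of the eggshell, fat body and hemocyte markers in the differences of the members was not tested.

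From a list of 43 further genes on the array, 8 were called by at least 1 of their probe sets, 6 of them higher and 2 lower in old flies. Of all genes on the array, 5.16% were called higher and 4.19% lower. The median log2 difference of the list was 0.0044, but only 24 of the 43 genes reached log2 6 in either group. This median is the value of Toll-4, which stood between 2.29 and 2.32 in all samples. By their brightest probe sets, 12 genes were higher and 4 lower at an FDR under 0.15 with no fold criterion. Higher at that FDR were 11.6% of all probe sets and 24.1% of the brighter ones. The count of called genes was 5 at an FDR under 0.05, without Old5 or without Old6.

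Of the 4 recognition proteins, 3 rose. PGRP-SD, a peptidoglycan recognition protein, had values of 2.42, 2.22 and 6.77 in the young and 9.89, 9.93 and 10.12 in the old samples. Young3 was far above the other young samples but still below all old ones. The difference was 6.18 on the log2 scale (FDR 0.0507, limma). With Young1 and Young2 near the lowest values of the scale, this is no measured ratio of RNA levels. The call held in 14 of 17 alternatives and was lost without Old5, without Old6 and at an FDR under 0.05. PGRP-SA, which binds the peptidoglycan of Gram-positive bacteria, rose by 5.44 (FDR 0.0434). Its young values were 3.95, 5.19 and 8.12, again with Young3 the highest, and its old values were 11.02, 11.46 and 11.11. With Young1 under log2 4, this rise is no firm ratio either. GNBP1, the partner of PGRP-SA, rose by 1.21 (FDR 0.100), but was called in only 9 of 17 alternatives. The call was lost without Young1, Young2, Old5 or Old6, at an FDR under 0.05, with the methods' t-test and with low values raised to log2 4 or 6. Those floors changed other probe sets only, since the values of GNBP1 lay between 6.74 and 8.82. The call held with SAM. GNBP3, which recognises fungal glucan, differed by 0.19 and was not called.

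In the protease cascade of the immune response, 2 of 5 genes rose. Hayan, a protease of the cascade, went from 3.00, 3.75 and 5.62 in young to 8.18, 7.64 and 8.37 in old samples, a log2 difference of 3.94 (FDR 0.0323, limma). It was called in all 17 alternatives, but Young1 and Young2 were under log2 4, so this difference is no firm ratio of RNA levels. The protease gene spirit rose by 1.77 (FDR 0.113), from young values of at most 2.16, close to the lowest the scale holds. It was called in only 7 of 17 alternatives. The call was lost without Young1, Young2, Young3 or Old6, at an FDR under 0.05 and with the methods' t-test. It was also lost with a trended and robust variance prior, with low values raised to log2 4 or 6 and with the filter at log2 6. Under both floors and the filter this loss was fixed in advance, since only Old5, at 4.66, was above log2 4. SAM kept the call. The proteases modSP (0.40), grass (0.28) and psh (0.25 on the log2 scale) were not called. Of these, psh stood between 2.27 and 2.76 in all samples, at the low end of the scale, and grass between 4.13 and 5.03. Among the serpins, Spn77Ba rose by 1.21 (FDR 0.0376), while Spn27A and Spn88Ea differed by 0.48 and 0.37, with FDRs of 0.0217 and 0.0386 but under the fold criterion.

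Of 6 genes that prepare the signal for the embryo, 1 fell and none rose. The gene ndl, which encodes the protease Nudel made by the follicle cells of the ovary, was at 12.54, 12.02 and 12.53 in young samples and at 8.83, 5.53 and 4.01 in Old4, Old5 and Old6. It fell by 6.24 on the log2 scale (FDR 0.0443, limma), and the call was lost without Old5. Its old samples had the same order as the summed eggshell markers. The log2 differences of the other 5 genes lay between -1.17 and 0.13, and only ndl and ea reached log2 6 in either group.

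Among the paralogs of the ligand and of the receptor, most were near the low end of the scale. None of the 5 other Spatzle family genes reached log2 6 in either group, and none was called. Of these, spz5 had the largest difference, at -0.10 with levels of 2.35 to 2.49. Of 8 other Toll family receptor genes, only 18w and Tollo reached log2 6. The former fell by 1.45 (FDR 0.0225, limma), from 11.75, 11.91 and 11.81 to 10.11, 10.13 and 10.89, and the call held in all 17 alternatives. Tollo differed by -0.26 (FDR 0.0264) and was not called. None of the 12 intracellular regulators was called. The largest difference among them was that of aPKC, an atypical protein kinase C, at 0.78 (FDR 0.00940), from 10.73, 10.88 and 10.72 in young to 11.42, 11.54 and 11.72 in old samples.

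**Figure D4:**
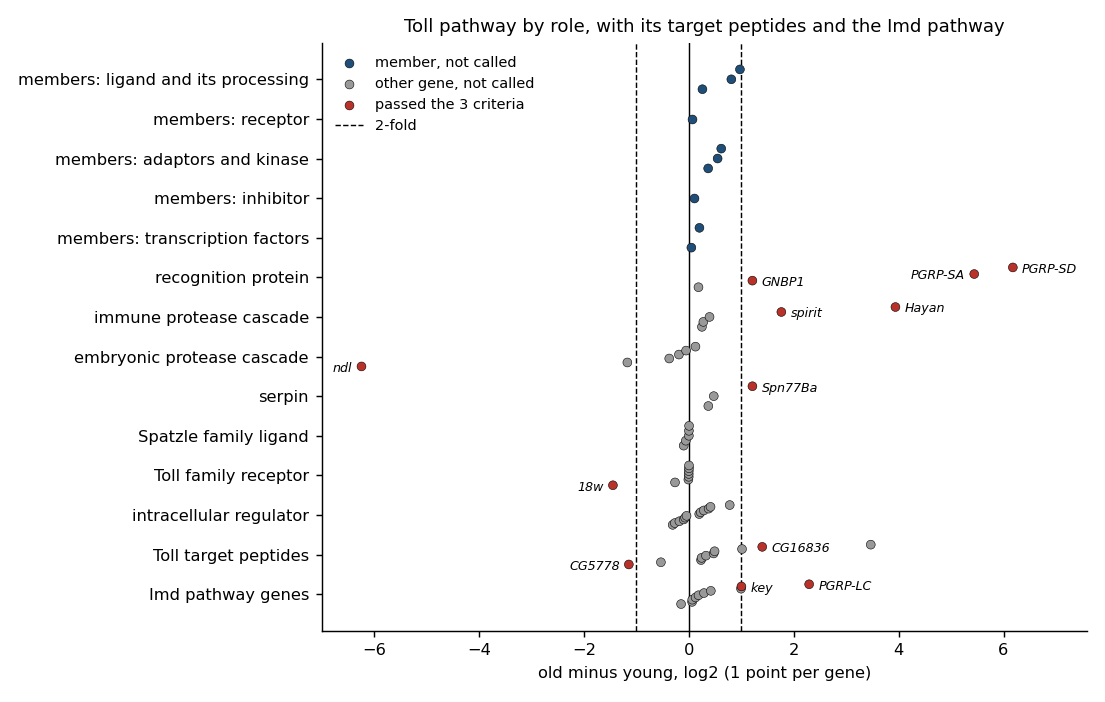
Log2 difference between the old and young age groups for each gene by role, 1 point per gene from its brightest probe set, with called genes in red and named, members in blue and the others in grey. Dashed lines mark a fold difference of 2. The members lie between 0.05 and 0.98, and the called genes of the pathway lie among the recognition proteins, proteases, serpins and receptors.

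Of 10 peptide genes known as targets of the pathway, 1 was called higher and 1 lower. Of all genes on the array, 5.16% were called higher and 4.19% lower. CG16836, named BomT2 in RefSeq and one of the Bomanin peptides, went from 9.85, 10.14 and 10.44 in young to 11.35, 11.49 and 11.81 in old samples, a rise of 1.40 (FDR 0.0143, limma). CG5778, named BomT3 in RefSeq, fell by 1.14 (FDR 0.0177), from 13.12, 13.03 and 13.24 to 12.35, 11.78 and 11.83. These 2 genes of the same peptide family were called in opposite directions. Metchnikowin (Mtk), an antifungal peptide, had the largest difference at 3.47 but an FDR of 0.230, and Young2 was at 7.37 while Young1 and Young3 were at 11.55 and 12.35. The median log2 difference of the 10 genes was 0.40.

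The Imd pathway, the other route to NF-kappaB in the fly, was set beside the members with the same fit. Of 10 of its genes on the array, 2 were called, both higher, beside 5.16% of all genes called higher. The alternatives were not run for the single Imd genes. The receptor gene PGRP-LC went from 3.49, 3.12 and 3.50 to 5.72, 5.45 and 5.82, a rise of 2.29 (FDR 0.00259, limma). Its group means of 3.37 and 5.67 were both under log2 6, so it is not among the brighter probe sets. All its young values were under log2 4, so its rise is no firm ratio of RNA levels. The gene key, which encodes a subunit of the IkappaB kinase, rose by 1.004 (FDR 0.00366), from 11.39, 11.46 and 11.19 to 12.28, 12.38 and 12.40. At 2.01-fold, key was just past the fold criterion. Relish (Rel), the transcription factor of that pathway, went from 12.12, 11.85 and 12.05 to 12.94, 13.07 and 12.99. Its fold difference of 1.99 was just under the criterion (log2 0.996, FDR 0.00394), whereas dl and Dif differed by 1.15-fold and 1.03-fold. The median difference of the 10 Imd genes was 0.24, beside 0.32 for the brightest probe sets of the 10 Toll members. Whether the pathways differ was not tested.

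As the member with the largest difference, nec was compared with all other probe sets for the likeness of its pattern, measured as the root mean square difference over the 6 samples after each probe set was centred on its mean. The nearest was Dark, the fly relative of the caspase activator Apaf-1, at 0.05 on the log2 scale, with a fold difference of 1.86 (FDR 0.0577, limma). Next came p130CAS, an adaptor of focal adhesions, at 0.07 with a fold difference of 2.05 (FDR 0.0152). The probe set of CG4302, named Ugt49B1 in RefSeq, followed at 0.09 with 1.83-fold (FDR 0.100). In all 3, as in nec, Young2 was the lowest and Young3 the highest of the young samples. Choosing them by likeness over these same samples favours such a shared order.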

How the data were processed

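Whole flies of 2 ages were measured on 6 arrays. Total RNA was amplified and put on GeneChip Drosophila Genome arrays. The deposited table holds log2 values that the authors made with GCRMA in Partek 6.5. This method removes background by probe sequence, forces the arrays to the same distribution and sums up the probes of each probe set, so levels of different probe sets are not comparable with each other. The table names genes without coordinates or an annotation release, so no positions are given, and sequences were not used here. Of its 18952 probe sets, 183 controls were left out.

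R 4.3.3 and limma 3.58.1 were used, with age group as the only term, and the fit was tested on simulated data. Array medians lay between 2.45 and 2.47. The number of arrays limits the precision. The submitters call the samples biological replicates, and no batch or scan date is given in the sources used here.

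The members and gene lists were chosen with earlier results of these data known. Named are all members with all probe sets and, from the other lists, the genes called and the gene with the largest difference per role. Any other gene was named after its values were seen. A gene outside the members is given by its brightest probe set, preferring those that name it alone. IM14, IM10, ird5, vas, Bic-C, Vml and dec-1 had no matching symbol in the table. The 10 members and all other named pathway genes matched RefSeq symbols.

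The methods name SAM and a t-test, and both were run as alternatives. For the t-test, the FDR was computed from its p values as for limma. SAM took the same p values with an FDR from permutations, which is the pairing that the methods describe. Further alternatives were a stricter FDR of 0.05, weighted arrays, a variance prior with trend and robust fitting, centring on the array median, a second quantile normalization, a floor at log2 4 or at log2 6, a filter at a group mean of log2 6, and leaving out each sample. Centring on the median of the brighter probe sets was added after the values were seen.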

Additional observations from a re-analysis of the deposited data

How the results depend on the processing

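The count of member probe sets that passed the 3 criteria was 0 as reported, with limma, against 8 at an unadjusted p under 0.05. It was also 0 with SAM and with the methods' t-test. These leave the differences unchanged, and none was above 2-fold, so that this 0 was fixed in advance. The count was 1 with array weights, where nec was called with a log2 difference of 1.27. With each sample left out it was between 0 and 2. Without the fold criterion it was 7. That count of 7 became 4 with the methods' t-test, 3 at an FDR under 0.05, 4 with values under log2 4 raised to 4, 4 with values under log2 6 raised to 6, and 3 to 6 with each sample left out. SAM gave 8 and array weights 9. The cause of these differences was not tested. Called genes among the other Toll pathway genes numbered 8 as reported, 5 at an FDR under 0.05 and 5 to 8 with each sample left out. Over all probe sets, 1203 were called as reported, 792 with values under log2 6 raised to 6, and 993 to 1157 with each sample left out. Centring on the median of the brighter probe sets, which moved that median by 0.04, left the counts of members at 0 and 7, but among those 7 the brighter cact probe set (FDR 0.168) gave way to the dimmer Tl probe set, with a difference of -0.05 (FDR 0.142). With the filter at log2 6 the count was also 7, with SPE (FDR 0.0788) in place of cact. Of 218 recomputed log2 differences of member probe sets, 212 kept their sign and their side of the 3 criteria, 4 came to pass them (nec 3 times, SPE once) and 2 turned sign. Those 2 were of the dimmer cact probe set. It went from -0.0101 (without Old6) to 0.12 (without Old4) as samples were left out and was at -0.0048 without Young1. The 212 include the t-test, SAM, the stricter FDR, the variance prior and the filter, which leave each difference unchanged. No member could turn sign or come to be called under these settings. The floors changed only the dimmer probe sets of dl and Tl.

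No paired analysis was possible because the columns of the old age group carry none of the replicate numbers of the labels. Signal limits the dimmer Tl probe set, psh and most paralogs, which gave values at the low end of the scale at both ages.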
